A study of Mus musculus with 6 samples.

Results

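Fc gamma receptors let macrophages recognise particles and immune complexes coated with IgG. The 8 genes examined here encode the mouse receptors for IgG and the signalling proteins closest to them: Fcgr1, Fcgr2b, Fcgr3, Fcgr4, Fcer1g, Syk, Lyn and Inpp5d. They were chosen by gene symbol, and all 8 were found among the 11789 genes of the deposited table. All 8 also passed the minimum mean level of 1 FPKM (fragments mapped to a gene, scaled to transcript length and library size) that was set for testing, as did 10696 genes in all.

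Transcripts were measured by RNA-seq in alveolar macrophages, the resident phagocytes of the air spaces, taken from the lungs of C57BL/6 mice. All libraries came after an exposure abbreviated BLM in the series title. There were 3 libraries from wild-type mice (BLM1, BLM2 and BLM3) and 3 from A20 conditional knockouts (the libraries A20-1, A20-3 and A20-4, called the A20 group below), with A20 being the ubiquitin-editing protein encoded by Tnfaip3. The labels give neither the Cre driver, the floxed exons, the age of the mice, the dose and day of the exposure, nor whether a library held 1 animal or pooled animals. The p-values therefore measure only the spread between these libraries, which may be technical.

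The receptors divide into activating and inhibitory forms. Fcgr1 encodes the high-affinity receptor, and Fcgr3 and Fcgr4 encode activating receptors of lower affinity. All of these signal through the common gamma chain encoded by Fcer1g, whose tail carries an immunoreceptor tyrosine-based activation motif (ITAM). Src-family kinases such as Lyn phosphorylate the motif when receptors cluster, and the kinase Syk docks there and starts the downstream cascade. Fcgr2b encodes the inhibitory IgG receptor, whose tail carries an inhibitory motif (ITIM) that recruits the lipid phosphatase SHIP1, the product of Inpp5d. In lung macrophages the balance between these forms sets how immune complexes are taken up and how strongly they activate the cell.

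4 of the genes lie close together on GRCm38 chromosome 1. Fcgr2b spans 170958617 to 170976547 on the minus strand, Fcgr4 171018920 to 171029761 on the plus strand, Fcgr3 171051174 to 171064935 on the minus strand and Fcer1g 171229572 to 171234365 on the minus strand. Inpp5d lies on the same chromosome at 87620312 to 87720507, plus strand. Fcgr1 is on chromosome 3 at 96282909 to 96293969, minus strand, Syk on chromosome 13 at 52583173 to 52648792, plus strand, and Lyn on chromosome 4 at 3678115 to 3813122, plus strand. Identifiers, positions and strands of all 8 were the same in GENCODE M21.

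Fcgr2b and Fcgr3 are near copies over part of their coding sequence. Of the 50-base words in the annotated coding sequences, 15.6% of those of Fcgr2b and 20.8% of those of Fcgr3 occur in both genes, and 0 are shared by any other pair of the 4 IgG receptors. The longest coding run that is identical in Fcgr2b and Fcgr3 is 129 bases, taken from the GENCODE M21 transcripts and shown because a read inside it cannot be assigned to either gene.
Fcgr2b and Fcgr3, shared coding run: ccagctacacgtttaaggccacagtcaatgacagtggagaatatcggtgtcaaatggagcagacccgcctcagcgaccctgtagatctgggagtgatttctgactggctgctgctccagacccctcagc
How reads were divided between the 2 genes is not given in the sources used here, so their separate values are uncertain to that extent.

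The promoters of Fcgr1 and Fcgr4 are shown because these receptors had the lower values in the A20 group and are known, as background, to respond to interferon gamma. RefSeq promoter windows (GRCm38.p6) were found for 7 of the 8 genes, and the bases before the transcribed part are printed 5′ to 3′ on the gene's strand. Capitals mark matches on either strand to TTCNNNGAA (the interferon gamma activated site), the interferon-stimulated response element (GAAA, any 2 bases, GAAA) or GAGGAA (the box bound by PU.1, the product of Spi1).
Fcgr1, chr3:96293970-96294219, minus strand: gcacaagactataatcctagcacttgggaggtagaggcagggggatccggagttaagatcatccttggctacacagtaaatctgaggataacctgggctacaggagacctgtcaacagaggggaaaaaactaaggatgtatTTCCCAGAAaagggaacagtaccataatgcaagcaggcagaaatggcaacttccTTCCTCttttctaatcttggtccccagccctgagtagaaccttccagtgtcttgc
Fcgr4, chr1:171018676-171018919, plus strand: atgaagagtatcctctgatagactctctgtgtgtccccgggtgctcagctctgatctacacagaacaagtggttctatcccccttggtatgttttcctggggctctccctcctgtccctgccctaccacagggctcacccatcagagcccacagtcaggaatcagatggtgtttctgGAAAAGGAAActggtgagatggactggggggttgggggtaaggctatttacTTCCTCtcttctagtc
Fcer1g, chr1:171234366-171234599, minus strand: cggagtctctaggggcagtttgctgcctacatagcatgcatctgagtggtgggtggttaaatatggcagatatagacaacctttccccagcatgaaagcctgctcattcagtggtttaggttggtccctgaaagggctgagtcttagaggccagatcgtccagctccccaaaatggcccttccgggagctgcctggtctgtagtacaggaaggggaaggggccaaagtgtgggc
The Fcgr1 window held an activated-site match 109 to 101 bases before the RefSeq start and a PU box match 55 to 50 bases before it. The Fcgr4 window held a response-element match 73 to 64 bases before the start and a PU box match 22 to 17 bases before it, and the matches did not overlap. The Fcer1g window, printed for comparison, held none of these letters, and neither did that of Fcgr2b. The windows of Fcgr2b, Fcgr3 and Syk lay wholly inside the annotated gene, with 0 bases before it. Bases upstream of these 3 annotated genes were therefore not searched. The log2 differences (knockout minus wild type) were -0.19 for Fcer1g and 0.25 for Fcgr2b, with overlapping groups for both. Windows of Fcgr3, Syk and Inpp5d held no activated-site or response-element letters either, and their differences were 0.10, 0.39 and 0.02. Any link between the letters and the differences was not tested. PU box letters were also in windows of Fcgr3, Syk and Inpp5d, so 5 of the 7 genes with a window held them. The 7 genes had 9 start sites, and a match at any site counted, while the shares that follow are per window. Among 32851 RefSeq promoter windows of 250 bases, 7.02% held the activated-site letters, 2.98% the response-element letters and 23.3% the PU box letters. A match is a description of the letters and not of binding.

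The targeted gene did not separate the groups. Tnfaip3 had FPKM values of 4.47, 2.18 and 21.6 for BLM1, BLM2 and BLM3, respectively, and of 8.44, 12.9 and 6.80 for A20-1, A20-3 and A20-4. An exact permutation test, two-sided, returned p = 1, and 0.1 is the smallest it allows with 3 against 3. That p rests on BLM3, the highest library: the 3 A20 libraries were above both BLM1 and BLM2, and without BLM3 the log2 difference was 1.27 (limma adjusted p = 0.0797), higher in the libraries labelled knockout. The level of the whole gene does not show which exons were removed, so it goes no further as a check, and directions below are between libraries as labelled. Library BLM3 stood apart from the others, with Pearson correlations across genes of 0.886 to 0.925 against 0.953 to 0.982 among the other 5 libraries. These are across genes, which are not independent replicates. The summed FPKM of BLM3 over 9 neutrophil markers was 2830, against 115 to 163 in the other libraries. S100a9 (1535) and S100a8 (861) made up most of that sum. Ltf (28.9 in BLM3) was higher in A20-1 (35.5), and Mmp8 (32.2 in BLM3) was higher in A20-3 (41.7). The neutrophil gene Ly6g was at 2.25 FPKM in BLM3, at 0.0752 in A20-1 and at 0 in the other 4 libraries. The 14 alveolar macrophage markers were all in the table and none was at 0 in any library. Their summed FPKM, most of it from Chil3, was 4362 to 7433 in wild type and 5436 to 7893 in the A20 group. Of the 14, 11 had positive differences (median 0.62, or 0.17 without BLM3). Without overlap, 5 were higher (Cidec, Krt79, Fabp1, Pparg and Plet1) and 1 lower (Marco), beside 15.9% and 13.1% of all genes tested. With 6 libraries 0 of the 14 rose and Marco, a scavenger receptor, fell (limma adjusted p = 0.0466), against 0.252% and 0.851% of all genes. Without BLM3, 3 of the markers rose and 1 fell, where 1.35% of all genes rose and 2.50% fell. The part of these cells in the values below was not tested.

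The core of the IgG receptor system was abundantly expressed, and 0 of its 8 genes rose and 0 fell in the A20 group (limma on log2(FPKM + 1), Benjamini-Hochberg adjusted p under 0.05 over all 10696 genes). For comparison, 27 genes rose and 91 fell among all genes tested, 0.252% and 0.851%, or 1.10% in all. After rescaling to TPM (transcripts per library scaled to a fixed total) the split over all genes was 41 rises and 64 falls, 0.383% and 0.598%, and again 0 of the 8 passed. At an unadjusted p under 0.05 there were 3 of the 8, Syk, Fcgr4 and Fcgr1, where 20.3% of all genes tested passed that mark. The median log2 difference (knockout minus wild type) of the 8 was 0.06, and 0.02 over all genes tested. Differences ran from -0.40 for Fcgr1 to 0.39 for Syk, with 95% intervals that together reached from -0.78 to 0.62. Without BLM3 the count was again 0 of 8, where 3.84% of all genes were called.

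**Figure D1:**
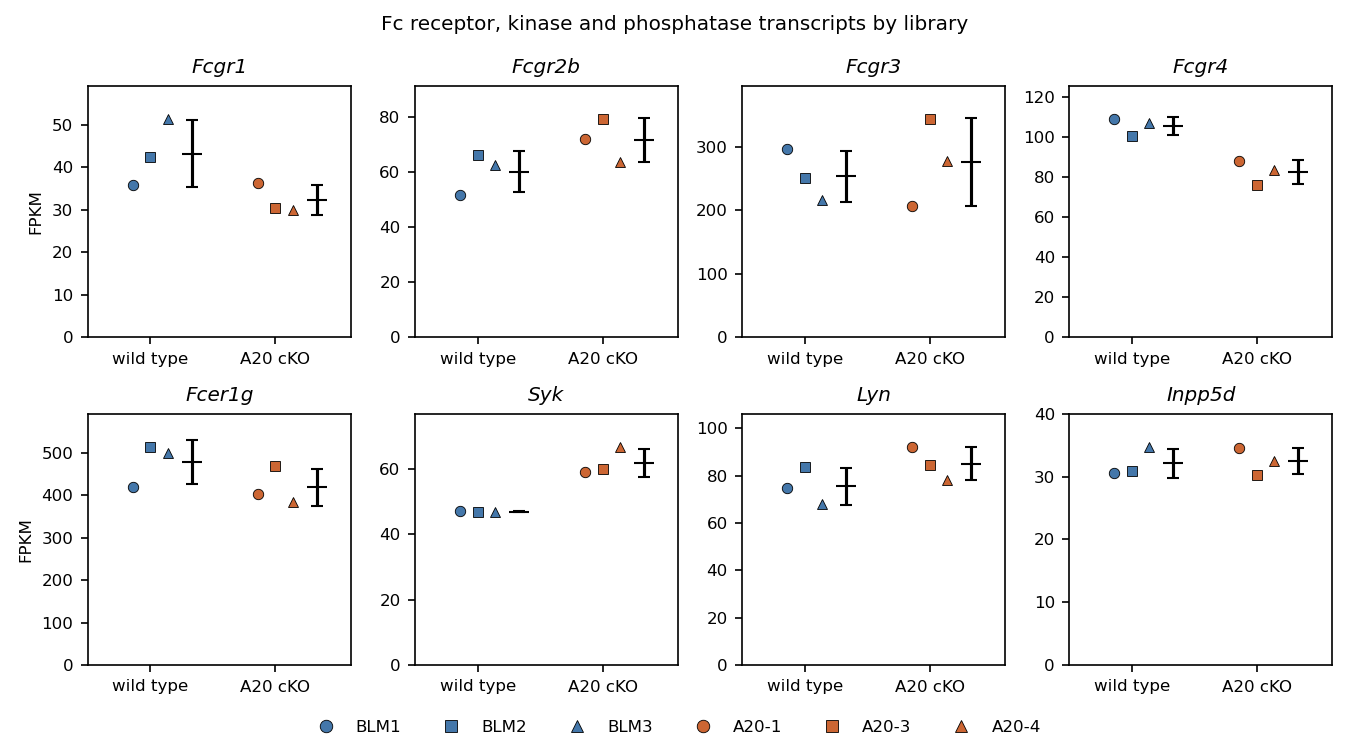
FPKM (vertical axes, linear and starting at 0) of each gene in the 3 wild-type (blue) and 3 A20 conditional knockout (orange) libraries. Symbols stand for libraries and bars for mean ± SD (n = 3); the groups do not overlap for Fcgr4 (100.8 to 109 against 76.0 to 88.0) and Syk (46.7 to 47.1 against 58.9 to 66.8) and overlap for the other 6 genes.

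FPKM is scaled to transcript length, so levels can be set side by side. In wild type the order by mean FPKM was Fcer1g, Fcgr3, Fcgr4, Lyn, Fcgr2b, Syk, Fcgr1 and Inpp5d, and only the values of the neighbours Syk and Fcgr1 overlapped. In the knockout libraries Fcer1g and Fcgr3 again came first. Lyn, Fcgr4, Fcgr2b and Syk followed, each overlapping the next, and Inpp5d and Fcgr1 came last with overlapping values. Fcer1g ranked number 60 of the 11789 genes by mean FPKM, Fcgr3 number 116, and Inpp5d, the lowest of the 8, number 1394.

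Among the activating receptors, Fcgr4 was lower in every knockout library than in any wild-type library. Its FPKM was 109, 100.8 and 107 in BLM1, BLM2 and BLM3 and 88.0, 76.0 and 83.5 in A20-1, A20-3 and A20-4. The means were 105.7 ± 4.38 (SD, n = 3) and 82.5 ± 6.05 (SD, n = 3), a log2 difference of -0.36 ± 0.10 (SE; 95% interval -0.61 to -0.11) that missed the threshold (limma adjusted p = 0.139). Fcgr4 and Syk were the 2 of the 8 genes whose groups did not overlap, where 29.0% of all genes tested did not, 13.1% lying below wild type and 15.9% above it. BLM3, with its high neutrophil marker sum, had an Fcgr4 level between those of BLM1 and BLM2, and without it the difference was -0.35 (limma adjusted p = 0.127). It was smaller after rescaling to TPM (-0.28, limma adjusted p = 0.222) and after quantile normalization (-0.29, 0.243). FPKM summed over all genes was 280415 to 294525 in wild-type libraries and lower, 266094 to 277394, in the A20 group.

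Fcgr1, the high-affinity receptor, had a similar difference with more spread. Its FPKM was 35.9, 42.4 and 51.5 in BLM1, BLM2 and BLM3 and 36.4, 30.5 and 29.9 in A20-1, A20-3 and A20-4. The groups overlapped, because A20-1 lay above BLM1, while BLM3 had the highest level. The log2 difference was -0.40 ± 0.16 (SE; 95% interval -0.78 to -0.02, limma adjusted p = 0.223), and it was -0.27 without BLM3.

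Fcgr3 was the most abundant of the receptor genes and the most variable between libraries of 1 group. It was at 296, 251 and 216 FPKM in the wild-type libraries and at 206, 345 and 278 FPKM in the A20 group, in the library order given above. Both the highest and the lowest of the 6 values were in knockout libraries. The log2 difference of 0.10 ± 0.22 (SE; 95% interval -0.42 to 0.62, limma adjusted p = 0.819) changed sign without A20-3 (-0.07), without BLM3 (-0.01) and with array weights (-0.09).

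The inhibitory receptor Fcgr2b had 51.8, 66.2 and 62.7 FPKM for wild type and 72.2, 79.5 and 63.6 FPKM in the A20 group. A20-4 lay below BLM2, so the groups overlapped, although A20-1 and A20-3 were above every wild-type library. The log2 difference was 0.25 ± 0.14 (SE; 95% interval -0.08 to 0.58, limma adjusted p = 0.353).

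Because activating and inhibitory receptors compete for the same ligand, their transcript ratio was also taken within each library, as a description without a test. The ratio of Fcgr4 to Fcgr2b was 2.11, 1.52 and 1.71 in BLM1, BLM2 and BLM3 and 1.22, 0.956 and 1.31 in A20-1, A20-3 and A20-4. The ratio of Fcgr1 to Fcgr2b was 0.693, 0.640 and 0.821 in wild type and 0.504, 0.384 and 0.470 in the A20 group. For both ratios every knockout library lay below every wild-type library. These ratios join genes whose own differences had opposite signs, and how often ratios of other gene pairs separate the groups was not computed. The ratio of Fcgr3 to Fcgr2b overlapped between the groups, with 4.32 ± 1.23 in wild type and 3.86 ± 0.861 in the A20 group (SD, n = 3 each). Since Fcgr3 makes up most of the activating sum, the ratio of Fcgr1, Fcgr3 and Fcgr4 together to Fcgr2b overlapped too (5.95 to 8.52 against 4.58 to 6.15).

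**Figure D2:**
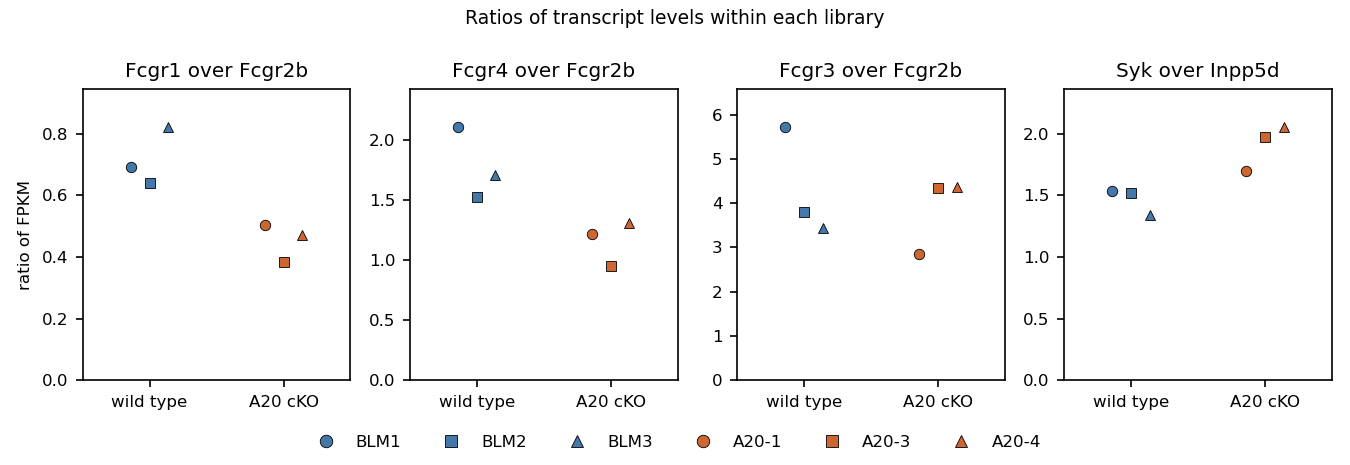
Ratios of FPKM within each library (vertical axes, linear and starting at 0) for 3 activating receptors over Fcgr2b and for Syk over Inpp5d, in wild-type (blue) and A20 conditional knockout (orange) libraries, 1 symbol per library. The groups are apart for Fcgr1 and Fcgr4 over Fcgr2b and for Syk over Inpp5d (1.34 to 1.54 against 1.70 to 2.05), and overlap for Fcgr3 over Fcgr2b.

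The shared signalling chain Fcer1g had 421, 516 and 501 FPKM for wild type and 403, 469 and 386 FPKM in the A20 group. A20-3 lay above BLM1, and the groups overlapped. The log2 difference was -0.19 ± 0.14 (SE; 95% interval -0.52 to 0.14, limma adjusted p = 0.468), and it was 0.01 after quantile normalization. There was about as much Fcer1g transcript as transcript of the 3 activating receptors together, with a ratio of 0.953 to 1.34 in wild type and 0.986 to 1.22 in the A20 group.

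Of the kinases, Syk was higher in every knockout library. It was at 47.1, 46.9 and 46.7 FPKM across BLM1, BLM2 and BLM3, the tightest wild-type group of the 8 genes, and at 58.9, 59.9 and 66.8 FPKM in A20-1, A20-3 and A20-4. The log2 difference was 0.39 ± 0.10 (SE; 95% interval 0.16 to 0.62, limma adjusted p = 0.109), and it was 0.39 without BLM3 (adjusted p = 0.0887). Syk passed the threshold only when libraries were given array weights (0.40, adjusted p = 0.0163), as did Fcgr4 (-0.39, adjusted p = 0.0200). That setting called 18.1% of all genes, 8.81% as rises and 9.27% as falls, and gave BLM1 a weight of 6.09 and BLM3 a weight of 0.229.

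Lyn, the Src-family kinase that can both start and restrain these signals, had 74.6, 83.7 and 68.1 FPKM for wild type and 92.3, 84.7 and 78.3 FPKM in the A20 group. BLM2 lay above A20-4, and the log2 difference was 0.17 ± 0.12 (SE; 95% interval -0.12 to 0.46, limma adjusted p = 0.456). Inpp5d, the phosphatase gene, had 30.7, 30.9 and 34.8 FPKM for wild type and 34.6, 30.4 and 32.5 FPKM in the A20 group. These ranges lay almost on top of each other. Its log2 difference of 0.02 ± 0.11 (SE) had a 95% interval of -0.23 to 0.27, and its sign turned when A20-1, BLM1 or BLM2 was left out. The ratio of Syk to Inpp5d was 1.46 ± 0.108 in wild type and 1.91 ± 0.185 in the A20 group (SD, n = 3 each). With Inpp5d nearly level, this ratio largely restates the difference of Syk. How often ratios of other gene pairs separate the groups was not computed.

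**Figure D3:**
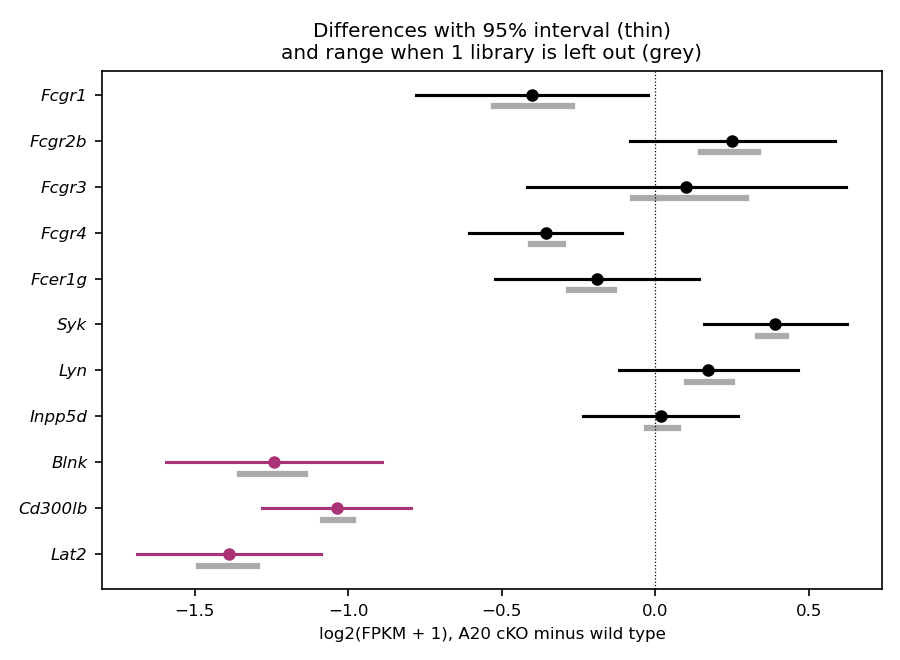
Log2 differences in log2(FPKM + 1), knockout minus wild type (horizontal axis), for the 8 genes (black) and the 3 pathway genes that passed the threshold (purple). Points are the limma estimates, thin lines their 95% intervals and grey bars the range when each library is left out in turn; the 8 genes lie between -0.40 and 0.39 and the 3 pathway genes between -1.39 and -1.04.

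The surroundings of the receptor system were read from 7 lists of pathway genes, with 129 tested entries. Over these lists 0 genes rose and 3 fell, where 0.252% of all genes rose and 0.851% fell. The 3 were the adaptor genes Lat2 and Blnk and the receptor gene Cd300lb. Without BLM3 there were 0 rises and 8 falls, where 1.35% of all genes rose and 2.50% fell. Counts at an unadjusted p under 0.05 (limma) follow for each list and for the B cell markers. They stand beside 20.3% of all genes tested.

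Among the other ITAM adaptors and ITAM-coupled receptors, 11 of 13 tested genes had a negative difference, with a median of -0.65 against 0.02 over all genes. Of these 13, 1 fell and 0 rose, and at an unadjusted p under 0.05 (limma) 5 were lower and 0 higher. Cd300lb, which encodes an activating receptor of the CD300 family, was at 32.1, 27.9 and 29.4 FPKM for wild type and at 13.4, 14.8 and 13.7 FPKM in the A20 group (log2 difference -1.04 ± 0.10, SE, limma adjusted p = 0.0140). Every knockout value was below every wild-type value. Its call ended without A20-1, A20-3, A20-4 or BLM1 (adjusted p 0.0628 to 0.0904).

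Others of this list lay lower without passing. Cd300ld had 41.3 FPKM for wild type and 18.1 in the A20 group (limma adjusted p = 0.0537), the lipid-sensing receptor gene Trem2 62.8 and 38.4 (0.0673), and the lectin receptor gene Clec5a 30.8 and 16.7 (0.0925). The lectin receptor gene Clec4d had 61.2, 55.6 and 235.8 FPKM for BLM1, BLM2 and BLM3 and 31.2, 36.6 and 40.8 FPKM in the A20 group. BLM3, which had the high neutrophil marker sum, was far above the others, and the log2 difference of -1.35 (limma adjusted p = 0.224) was -0.68 without it (0.0482). Without BLM3, 4 of the list fell, namely Cd300lb, Cd300ld, Trem2 and Clec4d, and the median was -0.24. Tyrobp, the adaptor DAP12 that serves many of these receptors as Fcer1g serves the IgG receptors, was at 1002, 1146 and 929 FPKM for wild type and 775, 874 and 838 in the A20 group (log2 difference -0.30, limma adjusted p = 0.263). Tyrobp was named with its values already known.

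Downstream of Syk, 2 of 32 tested adaptors and effectors fell and 0 rose, with a median of 0.13. At an unadjusted p under 0.05 (limma) 7 were higher and 3 lower. Lat2, a transmembrane adaptor of the LAT family that is phosphorylated after Fc receptor engagement, was at 21.3, 22.4 and 20.1 FPKM for wild type and at 7.40, 6.52 and 8.74 FPKM in the A20 group. The groups were far apart, and the log2 difference was -1.39 ± 0.12 (SE; limma, adjusted p = 0.0131). Blnk, the adaptor that links Syk to phospholipase C gamma and Btk, was at 9.66, 7.26 and 9.17 FPKM for wild type and at 3.37, 2.55 and 3.37 FPKM in the A20 group (-1.24 ± 0.15, SE, limma adjusted p = 0.0261). The call of Lat2 ended without A20-1 (adjusted p = 0.0528), A20-3 (0.0731) or BLM1 (0.0685), and that of Blnk without A20-1 (0.0810), A20-3 (0.120), A20-4 (0.110) or BLM1 (0.114).

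Blnk is also a B cell gene. Of 9 B cell markers tested 0 rose and 0 fell (limma, 2 at an unadjusted p under 0.05), 8 had a negative difference and none was at 0 in any library. Their summed FPKM was 149, 47.0 and 134 for BLM1, BLM2 and BLM3 and 39.7 to 56.4 in the A20 group, so the groups overlapped through BLM2. The part of B cells in the Blnk values was not tested. In bulk RNA, fewer cells of a type and less RNA per cell cannot be told apart.

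Of the 32 genes downstream of Syk, 20 had positive differences, none of which passed the threshold. The scaffold Gab2 was at 15.2 and 22.7 FPKM for wild type and knockout (limma adjusted p = 0.0747), the calcium sensor Stim1 at 2.73 and 4.43 (0.114), and the phosphoinositide 3-kinase adaptors Pik3r5 at 43.2 and 63.9 (0.135) and Pik3ap1 at 96.7 and 155.8 (0.142). For all 4 the knockout values lay above the wild-type values. On this list 11 genes were non-overlapping and higher and 6 non-overlapping and lower, beside 15.9% and 13.1% of all genes tested.

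Other Src-family kinases and their regulators gave 0 calls among 12 genes (limma, 3 at an unadjusted p under 0.05), with a median of 0.02. Pag1, the membrane anchor for the inhibitory kinase Csk, had 22.3, 22.4 and 15.3 FPKM for wild type and 33.5, 26.8 and 31.4 FPKM in the A20 group (limma adjusted p = 0.137). The phosphatase gene Ptprc (CD45) had 39.1 and 55.0 (0.162), and Src 7.29 and 5.16 (0.249). Blk, a kinase of B cells that also stands among the B cell markers, had 16.4 and 3.37 (0.140).

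The genes that build the phagocytic cup, including the Arp2/3 complex and Rac GTPases, had 0 calls among 24 (limma, 3 at an unadjusted p under 0.05) and a median of 0.03. The lowest p values were those of the adaptor Crkl at 10.4 and 14.2 FPKM for wild type and knockout (limma adjusted p = 0.0889), the phospholipase Pld2 at 8.22 and 13.1 (0.140), and the actin regulators Wasf2 at 24.1 and 29.6 (0.246) and Was at 35.7 and 42.4 (0.254). All 4 had positive differences.

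Inhibitory phosphatases, ligases and ITIM receptors likewise had 0 calls among 27 entries (limma, 6 at an unadjusted p under 0.05) and a median of -0.06. The ITIM receptor gene Clec12a was at 21.8 FPKM for wild type and 10.8 in the A20 group (limma adjusted p = 0.0537, or 0.0439 without BLM3), and Ceacam1 at 6.84 and 4.66 (0.111). Cd300lf had 68.2, 64.9 and 123 FPKM for BLM1, BLM2 and BLM3 and 51.4, 52.3 and 45.6 FPKM in the A20 group, and its log2 difference of -0.71 (0.188) was -0.41 without BLM3. The ubiquitin ligase Cbl, which removes activated receptors and kinases, lay the other way at 17.2 and 24.4 (0.103). Clec12a was the 1 gene of this list that fell when BLM3 was left out. Ptpn6, which encodes SHP-1, the protein phosphatase recruited by ITIM receptors, was also named with its values known. It was at 76.7, 78.6 and 114 FPKM for wild type and at 86.8, 92.4 and 75.2 FPKM in the A20 group, with BLM3 the highest. Its log2 difference of -0.06 ± 0.18 (SE, limma adjusted p = 0.869) turned positive without BLM3 (0.12), without A20-4, with array weights and after rescaling to TPM.

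Other Fc receptors and antibody-handling genes had 0 calls among 9 tested genes (limma, 2 at an unadjusted p under 0.05). Their median was -0.64, or -0.48 without BLM3. In both fits the median gene was Fcrla, which also stands among the B cell markers. Fcgrt, the heavy chain of the neonatal Fc receptor that recycles IgG, was at 38.1, 40.4 and 23.1 FPKM for wild type and at 60.1, 52.8 and 68.2 FPKM in the A20 group, with no overlap (log2 difference 0.85 ± 0.23, SE, limma adjusted p = 0.121). Fcrls, an Fc receptor-like gene, was at 17.5, 12.2 and 3.64 in wild type and at 3.09 ± 0.0826 FPKM (SD, n = 3) in the A20 group, where every value lay below the lowest of wild type. BLM3 was the low wild-type library here, and without it Fcrls fell by 1.94 on the log2 scale (limma adjusted p = 0.00927, against 0.188 with 6 libraries). Fcrl1 and Fcer2a, B cell receptors of this list, had 1.72 and 0.485 FPKM and 3.31 and 0.594 FPKM for wild type and the A20 group, with overlapping values.

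Transcription factors and interferon gamma response genes, the list that goes with the promoter letters of Fcgr1 and Fcgr4, had 0 calls among 12 genes (limma, 0 at an unadjusted p under 0.05). Their median was -0.14 with 6 libraries and 0.23 without BLM3. Irf8 was at 27.2 and 22.9 FPKM for wild type and knockout (limma adjusted p = 0.283), Ciita at 11.6 and 15.8 (0.337), and Cd274 at 89.5 and 65.6 (0.360; log2 difference -0.44, or -0.22 without BLM3). Socs3 had 36.1, 37.8 and 134 FPKM for BLM1, BLM2 and BLM3 and 37.2, 44.5 and 25.8 FPKM in the A20 group. BLM3 alone was high, and the log2 difference of -0.69 (limma adjusted p = 0.483) was -0.076 without it. Spi1, which encodes PU.1 and was likewise named with its values known, had 119, 135 and 107 FPKM for wild type and 122, 121 and 118 FPKM in the A20 group. Its log2 difference of 0.01 (limma adjusted p = 0.982) turned negative without A20-1, without BLM3 and with array weights.

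**Figure D4:**
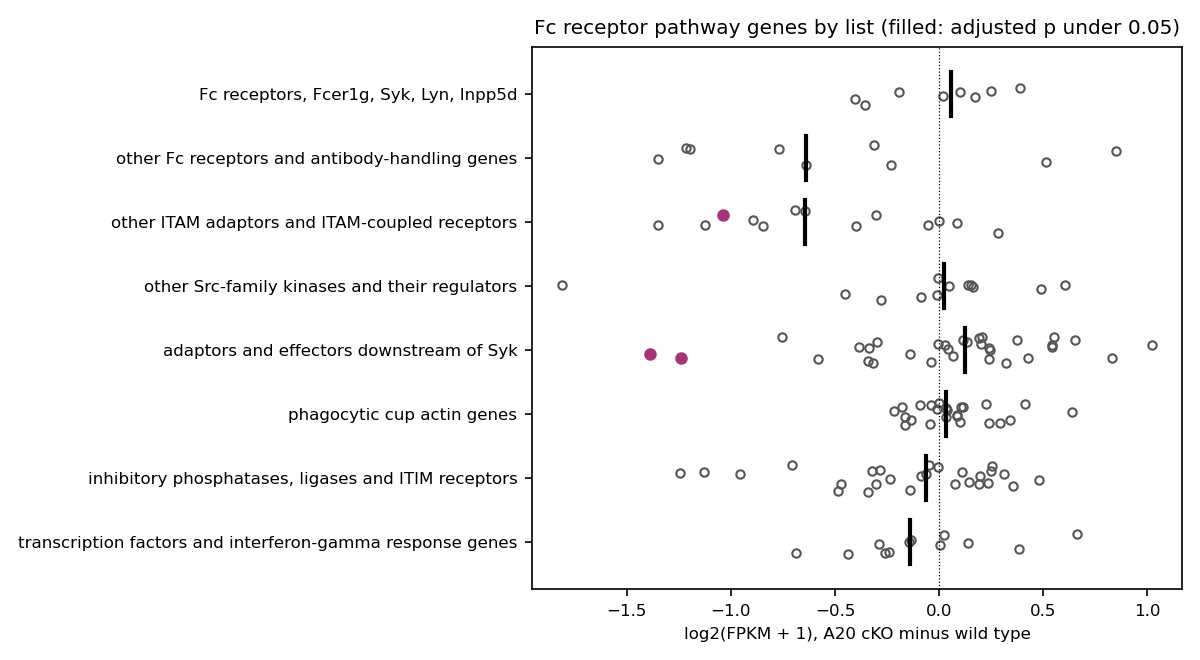
Log2 difference in log2(FPKM + 1), knockout minus wild type (horizontal axis), of every tested gene in each list (rows); vertical bars are list medians, filled points passed the threshold and open points did not. The 8 Fc receptor system genes centre on 0.06, the other ITAM-coupled genes on -0.65, and the filled points are Lat2, Blnk and Cd300lb.

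Markers of recruited macrophages, which also bear IgG receptors, moved with the groups. Of 13 tested entries 4 fell and 0 rose, where 0.851% and 0.252% of all genes did. A negative difference was seen for 11 of them, and none was at 0. These markers summed to 1246 to 1434 FPKM in wild type and 379 to 516 FPKM in the A20 group. The summed FPKM of the 8 Fc receptor system genes was 1066 to 1137 in wild type and 992 to 1175 in the A20 group, which overlap. Of 11 markers of mast cells, basophils and eosinophils, 1 (Kit) was analysed here. Natural killer and T cell markers summed to 94.4 to 264 FPKM in wild type and 128 to 145 FPKM in the A20 group. Dendritic cell markers summed to 154, 97.4 and 70.3 FPKM for BLM1, BLM2 and BLM3 and 56.6 to 75.3 FPKM in the A20 group. Neither list had a call with 6 libraries. Without BLM3, 3 dendritic cell markers fell and 0 rose, and 1 natural killer and T cell marker rose and 0 fell. Over all genes 1.35% rose and 2.50% fell in that fit. The part of these cells in the values of the Fc receptor genes was not tested.

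The window on chromosome 1 from Fcgr2b to Fcer1g is 275.7 kb long and held 7 genes of the table. Of these 0 rose and 0 fell (limma). The 4 receptor system genes in it had differences on both sides of 0, from -0.36 for Fcgr4 to 0.25 for Fcgr2b. The 95% intervals of Fcgr2b, Fcgr3 and Fcer1g included 0, so whether neighbours share a direction cannot be told.

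For each IgG receptor, the genes with the most similar pattern over the 6 libraries were sought among the 4333 genes that averaged 10 FPKM or more, by Euclidean distance between centred log2(FPKM + 1) values. Nearest to Fcgr1 were Mrpl52 (distance 0.17, Pearson r 0.967) and B2m (0.20, 0.952), and nearest to Fcgr4 were Uap1l1 (0.11, 0.971) and Htatip2 (0.13, 0.964). Fcgr2b was nearest to Gpr146 (0.14, 0.967) and Aaas (0.19, 0.938), and Fcgr3 to Cd83 (0.28, 0.930). These describe 6 libraries in which 1 stands apart, and the nearest of so many genes is near by selection. No IgG receptor was among the 2 nearest genes of another.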

How the data were processed

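RNA-seq of alveolar macrophages was available as 1 deposited table of FPKM, per the file headers, which the authors made on GRCm38, per the submitters' processing notes. Libraries were made with a stranded kit from total RNA, per the labels' protocols. Read depth behind the FPKM is unknown, and the sources used here do not name the aligner, quantifier or strand setting. Table columns were assigned to the 2 groups by name (A20 or BLM alone). All 6 were used.

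Values were transformed to log2(FPKM + 1), which understates changes of low genes, and genes averaging 1 FPKM or more were compared with limma 3.58.1 in R 4.3.3 (eBayes with trend), two-sided, with adjustment over all 10696 genes and a threshold of 0.05. "Rose" and "fell" are used for genes past it. The code was tested on simulated data. Alternatives were pseudocounts of 0.1 and 5, no minimum or a minimum of 5, rescaling to TPM, quantile normalization, no trend, array weights, and leaving out each library.

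The genes and lists were chosen with earlier results of these data known. Named genes are the 8, Tnfaip3, list genes past the threshold and up to 4 further genes per list with the smallest p, plus Tyrobp, Ptpn6 and Spi1, added after their values were seen. Fcrla was named as the median gene of its list. The symbols Lilrb4a and Itgam carry 2 gene IDs each, and both were kept. Some list genes were not analysed here, and some values are not reported here.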

Additional observations from a re-analysis of the deposited data

How the results depend on the processing

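None of the 8 genes was called under any of the 14 alternatives except with array weights, where 1 rose (Syk, 0.40) and 1 fell (Fcgr4, -0.39). Signs turned for Fcer1g with quantile normalization (0.010), for Fcgr3 with array weights (-0.088), and when 1 library was left out for Fcgr3 (-0.074 to 0.29), Inpp5d (-0.028 to 0.075) and Tnfaip3 (-0.14 without BLM2, up to 1.27 without BLM3). Spi1 turned with array weights (-0.0018), without A20-1 (-0.0035) and without BLM3 (-0.074), up to 0.089 without BLM2. Ptpn6 turned with array weights (0.096), after rescaling to TPM (0.021), without A20-4 (0.021) and without BLM3 (0.12), down to -0.16 without BLM1. The cause was not tested. Over all genes, 942 rose and 992 fell with array weights, 17 and 58 with a minimum of 5 FPKM, where fewer genes were tested, and 41 rose after rescaling to TPM. Leaving out 1 library gave 0 to 144 rises and 0 to 267 falls; without A20-3 there were 0 calls (limma, 1694 at an unadjusted p under 0.05), although such fits have fewer samples. No paired analysis was possible because the table columns do not carry the replicate numbers of the sample titles. Depth is unknown, so no counting error can be given.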
